A study of Mus musculus with 6 samples.

Results

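Horizontal-like cells were the cells that the authors labelled as horizontal cells and that carried more transcripts of horizontal than of amacrine cell factors. A cell belonged to them when its unique molecular identifiers (UMIs, counted transcripts) of Onecut1, Onecut2, Lhx1 and Prox1 summed to at least 1 and to more than those of Tfap2a, Tfap2c, Prdm13 and Ptf1a. The cells were thus chosen by their own measured values of these 8 genes. The rule gave 1733 cells, which were 65.1% of the 2662 cells of the label and 2.58% of all 67050 cells analysed. Another 548 cells of the label had the larger amacrine sum and are called amacrine-like, and 381 cells fell in neither class.

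The cells came from retinas of mouse embryos at embryonic day 14, profiled by droplet single-cell RNA-seq. The 6 libraries formed 3 groups of 2, all of them mutant: Bax het Atoh7 null (1 working copy of Bax, none of Atoh7), Bax null (Atoh7 wild type) and Bax null Atoh7 null. Atoh7 is the proneural transcription factor on which ganglion cells depend, and the Bax protein opens the mitochondrial membrane when a cell dies by apoptosis. Another label calls the Bax het Atoh7 null group the Atoh7 mutant, so these mutants also lacked 1 copy of Bax. The labels say neither how the deletions were made nor how many embryos a library held, so p-values measure the spread between these libraries, which may be technical. The Bax null Atoh7 null group is called the double mutant, as in that label, and the plain name Bax null stands for the group with intact Atoh7.

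Horizontal cells are inhibitory interneurons of the outer retina that receive input from photoreceptors and feed back onto them. They arise from precursors that pass through a Foxn4 and Ptf1a state shared with amacrine cells. Onecut factors, Prox1 and Lhx1 then mark the horizontal branch, while Ptf1a and Prdm13 act in the shared state or the amacrine branch. AP-2 factors (the Tfap2 genes) occur in both branches, so their transcripts alone do not mark a cell as amacrine. Notch signalling holds progenitors undifferentiated: ligands such as Dll1 activate the Notch1 receptor on a neighbour, Lfng and Mfng are sugar transferases that tune this contact, and Hes1, Hes5 and Hey1 are repressors switched on by it through the DNA-binding factor RBPJ.

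Hes5 and Lfng were lower in horizontal-like than in amacrine-like cells (the values follow), and their promoters are shown because they carry the RBPJ core motif. Of 8 Notch genes searched (Hes5, Hes1, Hey1, Lfng, Mfng, Notch1, Dll1, Dll3), 5 were in the RefSeq promoter table (build GRCm38.p6) and 2 of those held a match of GTGGGAA or its reverse complement TTCCCAC in the 250 bases before the start site. Hes5 (plus strand, chr4:154960673-154960922) had matches whose first letters lay 226 and 83 bases before the start. Lfng (plus strand, chr5:140607091-140607340) had 1 match, 109 bases before the start. The matches are in capitals.
Hes5: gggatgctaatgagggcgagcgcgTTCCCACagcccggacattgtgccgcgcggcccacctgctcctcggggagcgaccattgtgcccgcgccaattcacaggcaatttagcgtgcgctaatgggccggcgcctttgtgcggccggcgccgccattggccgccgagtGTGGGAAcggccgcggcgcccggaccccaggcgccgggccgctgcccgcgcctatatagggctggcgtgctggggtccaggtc
Lfng: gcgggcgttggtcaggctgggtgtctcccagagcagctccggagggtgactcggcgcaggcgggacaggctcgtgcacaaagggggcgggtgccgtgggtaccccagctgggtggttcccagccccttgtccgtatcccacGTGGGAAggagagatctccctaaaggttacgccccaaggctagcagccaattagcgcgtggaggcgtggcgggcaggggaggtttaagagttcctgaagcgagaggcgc
A match occurred in 5.42% of all 32851 promoters of the table, in 5.34% of those of genes higher and in 5.72% of those of genes lower in horizontal-like than in amacrine-like cells, so the motif was about as frequent in either list as anywhere.

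The rule rested mostly on Onecut2. It gave 89.8% of the members' UMIs of the 4 horizontal genes and was present in 99.5% of them, and 87.2% of members would not have been chosen without it. Prox1 was found in 24.5% of members, Onecut1 in 15.6% and Lhx1, the most restricted marker of the 4, in 7.91%. Lhx1 was found in 0.912% of amacrine-like and 0.0272% of ganglion cells, at median depths of 2022, 2106.5 and 3378 UMIs in members, amacrine-like and ganglion cells. Amacrine genes were not absent: 69.0% of members (1196 cells) carried at least 1 UMI of the 4 amacrine genes, against between 0.264% and 1.5% of ganglion cells per library. The median member had 5 horizontal and 1 amacrine UMIs, the median amacrine-like cell 1 and 3. Many cells stood close to the threshold: 327 members had sums that differed by 1 UMI, 244 cells of the label had equal sums above 0, 260 had an amacrine sum larger by 1, and 137 carried none of the 8 genes. These numbers describe the rule and are no findings.

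Members summed to between 566519 and 986595 UMIs per library, with a median per cell between 1472 and 4373. Levels are given as counts per 1000000 UMIs (CPM), and "scaled CPM" are CPM after TMM scaling of the libraries. The genotypes were checked first. Neurogenic cells, where Atoh7 is normally active, held Atoh7 at 22.5 and 21.1 CPM in the Bax null libraries and at 0 in the other 4, while members held 2.13 and 4.05 CPM in Bax null and none elsewhere, where a count of 0 allows up to between 3.90 and 5.30 CPM. Bax stood at 213 and 167 CPM in the members of Bax het Atoh7 null, at 35.1 and 35.5 CPM in Bax null, and at 75.3 and 33.5 CPM in the double mutant. The Bax null libraries stood apart: in their members mt-Atp6 reached 9286 and 9482 CPM, against 2.60 to 10.5 CPM in those of the other 4, although mt-Nd1 spanned only 3320 to 4009 CPM over all 6. Hemoglobin transcripts (Hbb-y, Hba-x and Hba-a1 summed) were at 1091 and 860 CPM in their members and between 0 and 94.9 CPM elsewhere. In both contrasts with Bax null the genotype and this difference between libraries cannot be told apart. The double mutant libraries shared 2596 cell barcodes, of which 89.4% had the same cell type in both, against 126 to 223 barcodes (34.3% to 46.0% of the same type) in the 14 other pairs of libraries. Of the shared cells, 31 were members in replicate 1 and 43 in replicate 2, and 18 were members in both. The ratio of UMIs between the libraries was nearly the same for all shared barcodes (median 0.380, quartiles 0.372 and 0.390). Whether these libraries hold some of the same cells was not tested, and the spread between them need not be that of independent libraries. Across all pairs, 184 members had a barcode found in another library.

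The label was checked against genes that the rule did not use. Tfap2b, an AP-2 factor of horizontal and amacrine cells, lay between 513 and 1103 CPM in members, between 150 and 477 CPM in amacrine-like cells and between 9.26 and 132 CPM in ganglion cells. Members also held Calb2 (calretinin, a calcium buffer) at 165 to 293 CPM, where ganglion cells had 2.09 to 49.8 CPM. Markers of mature horizontal cells were almost missing: Calb1 (calbindin) gave 15 UMIs in all members together and Gja10, a connexin of horizontal cell gap junctions, 2 UMIs. Gad2, the GABA synthesis gene found here, lay between 35.5 and 109 CPM, and Gad1 had 2 UMIs. Defining genes of other types were low: Pou4f2 (ganglion cells) reached 5.32 CPM against 34.5 to 82.6 CPM in ganglion cells, and Crx (photoreceptors) 21.3 CPM against 266 to 430 CPM in cones. Foxn4 lay between 8.11 and 19.4 CPM, below the 93.1 to 147 CPM of neurogenic cells. The members thus held Tfap2b and Calb2, and little of Calb1, Gja10 or Gad1. A longer list of 17 horizontal cell genes outside the rule did not set members above ganglion cells. Its summed level was 929 to 2341 CPM in members, 431 to 1223 CPM in amacrine-like cells and 2229 to 3257 CPM in ganglion cells.

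**Figure D1:**
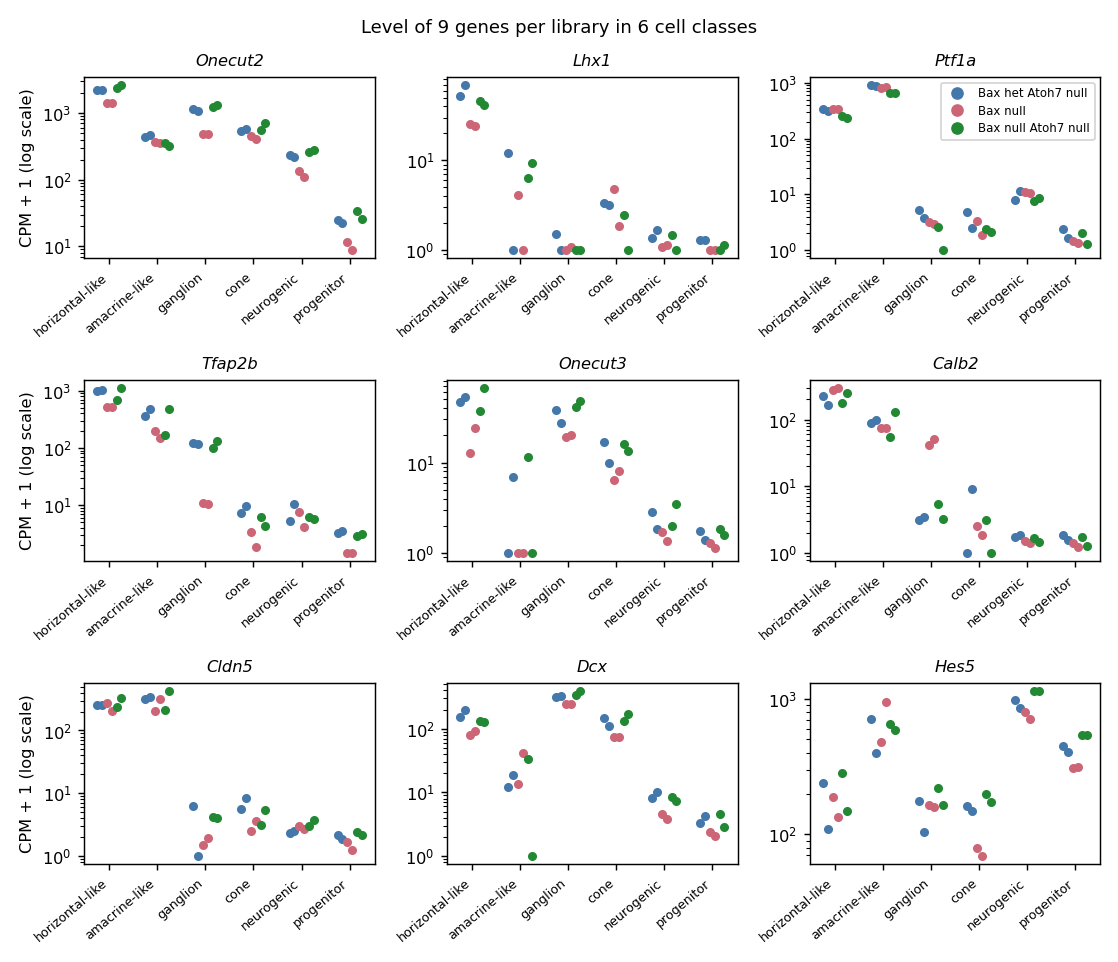
Level of 9 genes in 6 cell classes; each point is 1 library, the vertical axes show CPM + 1 on a log scale, and colours mark the genotype group. Onecut2, Lhx1 and Ptf1a belong to the rule; Tfap2b and Cldn5 were high in both classes of the horizontal label and at most 132 and 5.22 CPM in ganglion cells, and Hes5 was lower in horizontal-like (108 to 283 CPM) than in neurogenic and amacrine-like cells.

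Members lay in 6 of the authors' clusters, and the clusters differed in horizontal, neurite and Notch genes. Clusters 76 (386 members, 92.1% of its cells) and 57 (398 members, 83.1%) were mostly made of members. In cluster 76 Onecut3 stood at 153 CPM, against 25.1 CPM in cluster 57 and at most 8.90 CPM in the other 4. Its members also had the highest levels of several neurite and synapse genes: Dcx, a microtubule-binding protein of migrating neurons, at 436 CPM, the growth cone protein Gap43 at 736 CPM, the neurofilament Nefm at 329 CPM, the glutamate receptor subunit Gria2 at 181 CPM, the GABA receptor subunit Gabra2 at 89.1 CPM and the vesicle fusion protein Snap25 at 213 CPM. Other synapse genes peaked elsewhere, Syt1 in cluster 141 (236 against 206 CPM in cluster 76) and Syp in cluster 45 (22.6 against 9.26 CPM). In the same cluster the growth arrest gene Gadd45a was at 113 CPM, its lowest level among the 6.

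Clusters 2 (533 members) and 141 (106 members) had the most of the cyclin-dependent kinase inhibitor Cdkn1c, 1123 and 1344 CPM, and held Tfap2b at 485 and 952 CPM. Cdkn1c was nearly as high in cluster 57, at 1083 CPM, and lay between 403 and 573 CPM in clusters 45, 76 and 139. Cluster 57 had the highest Calb2, 646 CPM. Cldn5, which encodes a tight junction protein best known from vessel walls, was at 868 CPM in cluster 141, 358 CPM in cluster 2, 313 CPM in cluster 57 and 38.2 CPM in cluster 76. The other endothelial markers stayed low in members, Kdr between 11.1 and 24.7 CPM and Pecam1 at no more than 2.13 CPM.

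Clusters 45 (239 members, 44.3% of its cells) and 139 (71 members, 36.6%) had the lowest Tfap2b of the 6, at 127 and 56.9 CPM, and held Calb2 at 31.9 and 12.2 CPM, while the Notch target Hes5 was at 369 and 715 CPM, Notch1 at 92.6 and 187 CPM and the progenitor growth factor Fgf15 at 649 and 508 CPM. These members also held the photoreceptor regulators Otx2 (134 and 187 CPM) and Prdm1 (63.8 and 77.2 CPM), which lay at or below 53.4 and 3.47 CPM in the other 4 clusters. The clusters were ordered by the Tfap2b level of their members and grouped in pairs, so the low Tfap2b of clusters 45 and 139 follows from that choice. These clusters are called here by their numbers only. Together they held 310 members (17.9%), clusters 2 and 141 held 639 (36.9%) and clusters 57 and 76 held 784 (45.2%).

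The mix of clusters differed between the groups. Clusters 45 and 139 took 14.5% and 12.3% of the members in Bax het Atoh7 null, 27.6% and 22.5% in both libraries of Bax null, and 21.4% and 14.4% in the double mutant. Clusters 57 and 76 took 47.2% and 55.0%, 33.2% and 37.4%, and 44.5% and 45.9%. Both Bax null libraries thus had the highest shares of clusters 45 and 139 and the lowest of clusters 57 and 76, with no overlap with the other 4 libraries. The clusters were made from the same cells, so these shares are a description without a test.

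**Figure D2:**
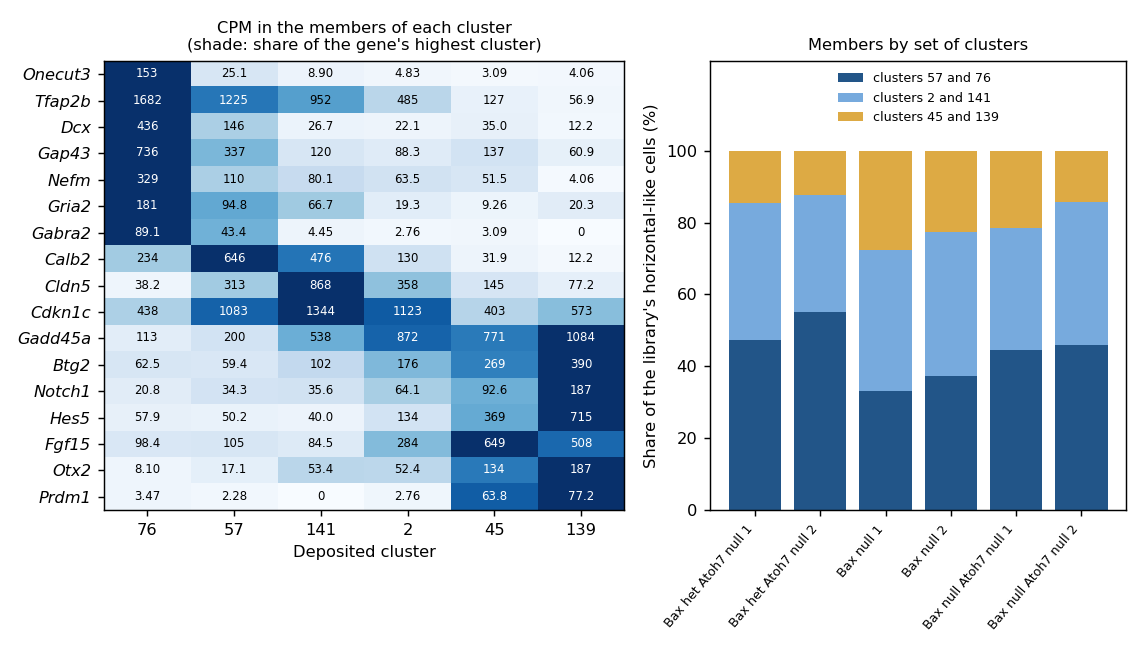
Left, CPM of 17 genes in the horizontal-like cells of each deposited cluster, shaded by the share of the gene's highest cluster; right, the percentage of each library's horizontal-like cells in 3 sets of clusters. The neurite and receptor genes shown peak in cluster 76, Hes5, Otx2 and Prdm1 in clusters 45 and 139, and the latter clusters take 27.6% and 22.5% of members in the Bax null libraries.

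Horizontal-like cells were next compared with amacrine-like cells of the same libraries, on genes outside the rule. The comparison asks what else separates cells that share a label and a library and differ in the balance of the 8 factors. Tfap2b, Onecut3, the neuronal genes Dcx and Gabra2 and the vesicle gene Rab3b were higher in horizontal-like cells, and Hes5, Lfng, Fgf15 and Btg2 were lower. In edgeR's quasi-likelihood test with the library as block and Benjamini-Hochberg adjustment, 681 of 7345 genes (9.27%) differed, 343 higher (4.67%) and 338 lower (4.60%). DESeq2 called 295 genes. Median UMIs per cell and library lay between 1472 and 4373 in horizontal-like and between 1346.5 and 4318.5 in amacrine-like cells.

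Of 17 horizontal cell genes outside the rule, 8 could be tested and 6 were higher, none lower, where 4.67% of all genes were higher. The list's median log2 difference was 1.28, against -0.02 over all genes. Tfap2b was at 935 and 1003 scaled CPM in the horizontal-like cells of Bax het Atoh7 null, 650 and 647 in those of Bax null, and 646 and 970 in the double mutant. In the amacrine-like cells of the same libraries it was at 336 and 455, 255 and 197, and 158 and 412 scaled CPM. The lowest horizontal-like library thus lay above the highest amacrine-like one, and the log2 difference was 1.43 (SE 0.08, adjusted p = 1.16e-24, edgeR). Onecut3, another Onecut factor that the rule left out, lay between 14.7 and 57.4 scaled CPM in horizontal-like cells and between 0 and 9.90 in amacrine-like cells, where 4 of 6 libraries had none (log2 difference 3.61, SE 0.47, adjusted p = 8.56e-09, edgeR). The other 4 were Tnr (an extracellular matrix protein), Gad2, Nefm and Nefl, with log2 differences of 1.47, 0.97, 1.13 and 1.60. Nefm and Nefl also stand in the retinal ganglion cell list.

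The lists that follow are set against 4.67% of all genes higher and 4.60% lower. Of the retinal ganglion cell list, 7 of 12 tested genes were higher, none lower and 5 did not pass, with a median of 0.68. Of the GABA and synapse list 6 of 9 were higher and 3 did not pass (median 0.87), and of the axon guidance and adhesion list 3 of 11 were higher and 8 did not pass (median 0.29). In the first list these were Sncg, Nefl, Nefm, Gap43, Elavl4, Stmn2 and Dcx, which many young neurons share, while the ganglion cell factors Pou4f2 and Isl1 stayed at or below 5.32 and 27.7 CPM in members. Dcx lay between 99.2 and 186 scaled CPM in horizontal-like and between 0 and 52.5 in amacrine-like cells (log2 difference 2.49, SE 0.23, adjusted p = 3.06e-14, edgeR). The synapse genes included Gabra2 (log2 difference 2.37), Gria2 (1.29) and Calb2 (1.5). Calb2 was at 353 and 370 scaled CPM in the horizontal-like cells of Bax null, compared with 159 to 219 in those of the other 4 libraries and 49.5 to 110 in all amacrine-like cells. Among genes named by size alone, Rab3b, a vesicle GTPase, rose by 1.99 and Cnr1, the cannabinoid receptor, by 1.89 on the log2 scale, each higher in 6 of 6 libraries. Barhl2, a homeobox factor of amacrine and ganglion cells, was also higher (1.18). It stands in the list of amacrine genes outside the rule, of which 3 of 8 tested genes were higher (with Elavl3 and Elavl4, which other neurons share) and 1 lower, with a median of 0.10.

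Of the lower genes, 8 of the Notch pathway are described together, a choice made after their values were seen. Hes5 was at 227 and 104 scaled CPM in the horizontal-like cells of Bax het Atoh7 null, 236 and 168 in those of Bax null, and 262 and 130 in the double mutant. Amacrine-like cells had 666 and 380, 611 and 1231, and 604 and 508 scaled CPM, so that no library overlapped (log2 difference -1.83, SE 0.11, adjusted p = 1.91e-23, edgeR). Lfng fell from between 58.9 and 190 to between 9.99 and 41.6 scaled CPM (log2 difference -2.17, SE 0.19, adjusted p = 1.23e-14, edgeR). Mfng (-1.44), Hey1 (-1.43), Notch1 (-0.92), Dll3 (-0.89) and Hes1 (-0.84) were lower in 6 of 6 libraries, and Dll1 (-0.95) in 5 of 6. The ligands were the weakest: without Bax het Atoh7 null replicate 1 neither Dll1 (-0.81) nor Dll3 (-0.59) passed, nor did Dll1 without Bax null replicate 2 (-0.82). Of all genes tested, 6.13% were lower and 6.39% higher in 6 of 6 libraries. Hes1 also followed the library: its levels were 450 and 530 scaled CPM in the horizontal-like and 809 and 910 in the amacrine-like cells of Bax null, and between 59.0 and 157 in both classes elsewhere.

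In the progenitor list 6 of 15 genes were lower and 2 higher, and in the Foxn4 state and neurogenic list 6 of 16 were lower and 1 higher. Among all genes tested 4.60% were lower and 4.67% higher. Fgf15 (-1.04) and the eye field factor Rax (-0.67) were among the first group, while Six3 (0.43) and Six6 (0.47), eye field factors too, were higher. The differentiation brake Btg2 (-1.13) and Gadd45a (-0.54) were among the second. Foxn4 did not pass the test, with a log2 difference of -0.51. None of 15 tested S phase genes passed it, and of 15 tested G2 and mitosis genes only Ube2c did, with a log2 difference of -0.61 and lower in 3 of 6 libraries. Blood transcripts moved with the classes too: Hbb-y was at 1009 and 788 scaled CPM in the horizontal-like and 2880 and 854 in the amacrine-like cells of Bax null (log2 difference -0.88, or -0.13 without Bax null replicate 1), and its part in the result was not tested.

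The 2 classes did not fill the clusters alike. Amacrine-like cells numbered 41 and 15 in clusters 57 and 76, 205 and 43 in clusters 2 and 141, and 180 and 64 in clusters 45 and 139. In a comparison added after seeing the data and limited to cluster 2, with 533 horizontal-like and 205 amacrine-like cells, 18 of 3926 genes (0.458%) passed the test. Tfap2b stayed higher there (log2 difference 0.64, SE 0.14, adjusted p = 0.00607, edgeR), as did the intermediate filament Ina (0.86, SE 0.14, adjusted p = 1.80e-05, edgeR) and Six3 (0.44). Hes1 (-0.76, SE 0.16, adjusted p = 0.00476, edgeR), Fgf15 (-0.66) and the sugar phosphate enzyme Pgm2 (-1.05) stayed lower. Hes5 (-0.46, adjusted p = 0.636, edgeR), Lfng (-0.83, adjusted p = 0.792, edgeR) and Notch1 (-0.62, adjusted p = 0.603, edgeR) kept their sign and did not pass. Gap43 (0.18, adjusted p = 0.951), Nefm (0.31, adjusted p = 0.917), Calb2 (0.85, adjusted p = 0.217), Stmn2 (0.12), Mfng (-0.29) and Hey1 (-0.91) did not pass there either (edgeR), and Dcx, Onecut3 and Gabra2 were too low in that cluster to be tested. Of 488 genes called over all clusters and tested within cluster 2, 397 had the same direction there and 16 passed in both.

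**Figure D3:**
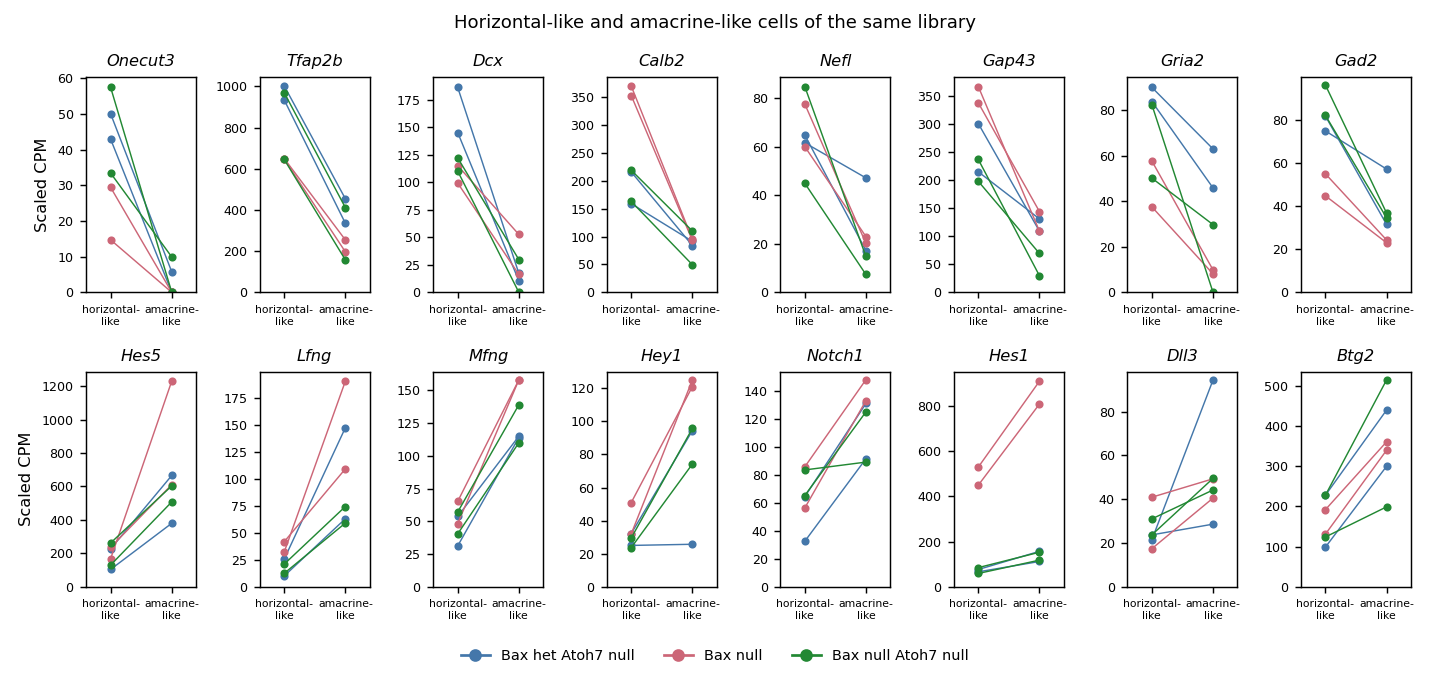
Scaled CPM of 16 genes in the horizontal-like (left point) and amacrine-like (right point) cells of each library, joined by a line and coloured by group; axes start at 0. The upper row falls from left to right (Tfap2b from a mean of 809 to 302), the lower row of Notch genes and Btg2 rises (Hes5 from 188 to 667).

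The share of horizontal-like cells was lowest in Bax null. It was 3.01% and 3.16% of the cells in Bax het Atoh7 null, 2.11% and 1.96% in both libraries of Bax null, and 2.35% and 2.88% in the double mutant. Group means were 3.08% ± 0.10, 2.04% ± 0.106 and 2.61% ± 0.374 (SD, n = 2 each). Every library of the Atoh7 null groups thus lay above both Bax null libraries. In edgeR's quasi-likelihood test on cell counts, adjusted over 7 cell classes by Benjamini-Hochberg, Bax het Atoh7 null exceeded Bax null by a log2 difference of 0.60 (SE 0.17, adjusted p = 0.00446). The difference of the double mutant from Bax null, 0.35 (SE 0.17, adjusted p = 0.0959, edgeR), and that between the Atoh7 null groups, -0.24 (SE 0.17, adjusted p = 0.563, edgeR), did not pass. A share of cells cannot tell more horizontal cells from fewer cells of other types: ganglion cells fell by 1.07 on the log2 scale from Bax null to Bax het Atoh7 null (adjusted p = 4.85e-06, edgeR). The rise was not particular to members. In the same contrast, label cells of neither class rose by 1.18 (adjusted p = 6.64e-04, edgeR). Cones rose too (adjusted p = 1.78e-05, edgeR). Amacrine-like (0.48, adjusted p = 0.0509, edgeR), neurogenic (0.23) and progenitor cells (0.03) did not pass. From Bax null to the double mutant, cells of neither class rose by 1.31 and cones by 0.85 (adjusted p = 1.34e-04 and 1.27e-04, edgeR). Ganglion cells fell by 0.97, and no other class passed.

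The size of the difference in the share of horizontal-like cells depended on the denominator and on depth. With every cell thinned to 1000 UMIs before the rule was applied, the shares were 2.65% ± 0.134, 1.35% ± 0.113 and 2.38% ± 0.304, and the double mutant then exceeded Bax null by 0.81 (SE 0.18, adjusted p = 6.00e-04, edgeR). As a share of the horizontal label, members made up 64.3% ± 5.82, 65.3% ± 2.06 and 66.5% ± 2.0, and the difference of Bax het Atoh7 null from Bax null was -0.03 (adjusted p = 0.792, edgeR). With TMM scaling over the classes it was 0.35 (adjusted p = 0.0998, edgeR). Amacrine-like cells made up 1.10% ± 0.358, 0.797% ± 0.0938 and 0.597% ± 0.0299 of all cells. They were fewer in the double mutant than in Bax het Atoh7 null (log2 difference -0.88, SE 0.21, adjusted p = 0.00294, edgeR). Leaving out Bax null replicate 2 ended the call of horizontal-like cells between Bax het Atoh7 null and Bax null (0.55, adjusted p = 0.0761, edgeR). The difference of the double mutant from Bax null was 0.51 (adjusted p = 0.0276, edgeR) with the cells of shared barcodes left out.

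**Figure D4:**
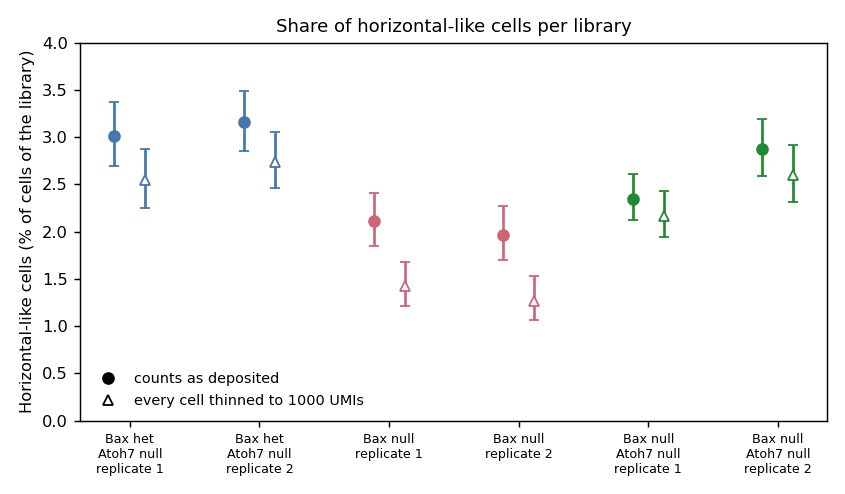
Horizontal-like cells as a percentage of the cells of each library, from the deposited counts (circles) and after thinning every cell to 1000 UMIs (triangles), with Wilson 95% intervals that cover counting error only. The Bax null libraries, at 2.11% and 1.96%, lie below the other 4 on both scales.

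Few genes separated the horizontal-like cells of the Atoh7 null groups, which differ in Bax by their labels. Between the double mutant and Bax het Atoh7 null, 87 of 7799 genes (1.12%) passed edgeR's quasi-likelihood test with Benjamini-Hochberg adjustment, 4 higher (0.0513%) and 83 lower (1.06%). DESeq2 called 51, all lower. The edgeR count was 226 without double mutant replicate 1, and 55 and 22 without Bax het Atoh7 null replicates 1 and 2. None of 8 tested horizontal cell genes, 13 ganglion cell genes, 5 photoreceptor genes, 15 progenitor genes or 14 death and stress genes passed; this does not show that they were equal, and their medians were -0.04, -0.03, -0.26, 0.34 and 0.14 on the log2 scale against 0.00 over all genes. Tfap2b had 930 and 999 scaled CPM against 642 and 969 (log2 difference -0.26, SE 0.17, adjusted p = 0.668, edgeR).

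Bax itself fell by 1.84 in log2 units (SE 0.24, adjusted p = 0.00154, edgeR), from 200 and 160 to 69.2 and 29.5 scaled CPM. The other genes named by size were mostly small mitochondrial or ribosomal components: Ndufa3 (-1.90), Usmg5 (-1.73), Atp5k (-1.66), Cox17 (-1.61) and Rps29 (-1.61). Rps29 was at 1454 and 1469 scaled CPM in Bax het Atoh7 null, 612 and 339 in the double mutant, and 8023 and 9228 in Bax null. Set against progenitors of the same libraries, these 5 differences were near 0, with -0.27, -0.00, -0.00, -0.12 and 0.15 in the same order, and Bax moved to 0.49 (adjusted p = 0.972, edgeR). Rpap3 went from -1.71 to -1.15 (adjusted p = 0.236), Gm561 from -1.78 to -0.81 (adjusted p = 0.913) and Zc3hc1, a higher gene, from 1.06 to 1.0 (adjusted p = 0.0507, edgeR), so for these 3 more of the difference remained.

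Among list genes, Rorb, a nuclear receptor of the Foxn4 state, and Pax6, a homeobox factor of progenitors, amacrine and horizontal cells, were lower, by 0.84 and 0.77 on the log2 scale (adjusted p = 0.00898 and 0.0110, edgeR). Against progenitors their differences were 0.12 and -0.24 and did not pass. The call of Pax6 was also lost without either Bax het Atoh7 null library (-0.79 and -0.75), and that of Rorb without replicate 2 of that group (-0.79). Id1, an inhibitor of bHLH factors, rose by 0.82 (adjusted p = 0.0354, edgeR), from 69.4 and 78.4 to 145 and 115 scaled CPM, and lost the call in most alternatives, among them against progenitors (0.54, adjusted p = 0.483, edgeR), without shared barcodes (0.29, adjusted p = 0.883, edgeR) and with clusters 45 and 139 left out (0.53, adjusted p = 0.704, edgeR). Of the 87 genes, 1 was also called against progenitors in the same direction (0.0128% of genes tested), Ctso, a lysosomal protease. Ctso was at 0 and 1.24 scaled CPM in Bax het Atoh7 null, 12.1 and 7.69 in both libraries of Bax null, and 12.5 and 14 in the double mutant, and was named after its values were seen.

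Differences from Bax null were far more numerous. The double mutant, which differs from it in Atoh7 by the labels, had 1938 called genes (24.8%), 899 higher (11.5%) and 1039 lower (13.3%), and Bax het Atoh7 null, which differs in both genes, 2002 (25.7%), 945 higher (12.1%) and 1057 lower (13.6%; edgeR, Benjamini-Hochberg). DESeq2 called 781 and 671, with 27.8% and 34.9% of them higher, against 46.4% and 47.2% in edgeR. Without Bax null replicate 1 or 2 the first edgeR count was 1261 or 1146 and the second 1161 or 1043, and without Bax het Atoh7 null replicate 1 or 2 the second was 1244 or 1143. Both contrasts use the same Bax null libraries, whose difference from the other 4 libraries they also carry. Each gene was therefore also tested for the difference between members and progenitors within a library. Of 13238 genes, 193 (1.46%) and 236 (1.78%) passed that test, and between the Atoh7 null groups 9 (0.0680%). In the contrasts with Bax null, 64 (0.821%) and 94 (1.21%) genes passed in both fits with the same direction. With the members of clusters 45 and 139 left out as well, 37 (12 higher, 25 lower) and 38 (13 higher, 25 lower) of these still passed in both.

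Of the 20 genes named by size in each contrast, 2 in the first (Mcm6 and Tspyl1) and 1 in the second (Ftl1, an iron storage subunit) also passed against progenitors. Sumo2, a small protein modifier, was at 1847 and 1854 scaled CPM in Bax null, against 0 to 3.73 in the other 4 libraries, and Actg1, a cytoskeletal actin, at 2178 and 2194 against 9.34 to 16.2. Both belong to families with near-identical copies, so their counts are uncertain, and the part of this in the difference was not tested. Set against progenitors, the differences of Sumo2 were -1.28 and 0.22 and those of Actg1 -0.66 and -0.57, and none passed. Among the higher genes, Wsb1 (2.06 and 2.10 on the log2 scale) and the glial and neuronal membrane protein Gpm6b (1.75 and 1.93) likewise had differences from progenitors of at most 0.31.

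The horizontal cell list had 4 of 8 tested genes higher in the double mutant than in Bax null (Onecut3, Ndrg1, Gad2, Nefm) and 5 of 8 in Bax het Atoh7 null (the same 4 and Tfap2b). Over all genes 11.5% and 12.1% were higher, and 13.3% and 13.6% lower. The list's medians were 0.57 and 0.61 on the log2 scale, against 0.04 and 0.03 over all genes. Set against progenitors, 0 of 15 tested genes of the list were higher and 1 lower in the double mutant, and 1 was higher and 3 lower in Bax het Atoh7 null. Over all genes 1.46% and 1.78% passed that test in either direction. Nefm was at 159 and 151 scaled CPM in Bax het Atoh7 null, 80.7 and 42.3 in both libraries of Bax null, and 151 and 153 in the double mutant. Its difference from Bax null was 1.34 in Bax het Atoh7 null (SE 0.21, adjusted p = 2.19e-04, edgeR) and 0.97 against progenitors (adjusted p = 0.0106, edgeR), and for the double mutant 1.31 and 0.57 (adjusted p = 0.364, edgeR). Onecut3, Ndrg1 and Gad2 had no higher difference in either contrast once set against progenitors, between -0.65 and 0.23, and Ndrg1 was then lower in Bax het Atoh7 null (-0.65, adjusted p = 0.00222, edgeR). Tfap2b, at 930 and 999, 653 and 648, and 642 and 969 scaled CPM in the 3 groups, was higher by 0.57 (adjusted p = 0.0203, edgeR) in Bax het Atoh7 null, and against progenitors its difference was -1.28; progenitors held it at only 0.441 to 2.57 CPM. Of the GABA and synapse list, 2 of 10 tested genes were higher and 2 lower in the double mutant, and 4 higher and 2 lower in Bax het Atoh7 null. Calb2 was among the lower ones in both (-0.93 and -0.96, adjusted p = 4.11e-04 and 3.35e-04, edgeR) and did not pass against progenitors. The mix of clusters differed between the groups too: Bax null had the smaller share of clusters 57 and 76. Onecut3 and Nefm were highest in cluster 76 (153 and 329 CPM) and Ndrg1 in cluster 141 (872 CPM). For Calb2 the mix ran the other way. It was higher in Bax null, yet was highest in cluster 57 (646 CPM), of which Bax null had the smaller share. The part of this mix in the differences was not tested.

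A few regulators kept their difference in 4 fits, those with and without clusters 45 and 139, each on its own and against progenitors. Jun, an immediate early transcription factor of the stress response, was at 171 and 141 scaled CPM in Bax het Atoh7 null, 74.0 and 53.8 in both libraries of Bax null, and 169 and 194 in the double mutant. Both Atoh7 null groups lay above both Bax null libraries. The log2 differences from Bax null were 1.5 (SE 0.19, adjusted p = 1.43e-05, edgeR) in the double mutant and 1.28 (SE 0.19, adjusted p = 1.06e-04, edgeR) in Bax het Atoh7 null. Against progenitors and without clusters 45 and 139 they were 1.41 and 1.17. Of 14 tested death and stress genes, 3 were higher in the double mutant (Jun, Mdm2 and Bcl2) and 0 lower, where 11.5% and 13.3% of all genes were. In Bax het Atoh7 null 2 of 14 were higher and 2 lower, where 12.1% and 13.6% of all genes were.

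Gadd45a went the other way, at 426 and 435, 845 and 825, and 489 and 589 scaled CPM in the same order of groups. It was lower than in Bax null by 0.63 (SE 0.14, adjusted p = 0.00307, edgeR) in the double mutant and by 0.95 (SE 0.14, adjusted p = 9.71e-05, edgeR) in Bax het Atoh7 null. Without clusters 45 and 139 these differences were -0.65 and -0.91. Against progenitors they were -0.87 and -1.30, and -0.87 and -1.24 with those clusters also left out. Between the clusters Gadd45a ranged from 113 CPM in cluster 76 to 1084 CPM in cluster 139.

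Sox2, Fgf15, Sfrp2 and Mcm6 were higher in the members of the double mutant than in those of Bax null. Sox2, a progenitor and amacrine factor, was at 183 and 194 against 78.0 and 75.6 scaled CPM, with 136 and 102 in Bax het Atoh7 null (log2 difference 1.29, SE 0.18, adjusted p = 3.21e-05, edgeR). Fgf15 (0.70, adjusted p = 0.0111, edgeR), Sfrp2, a secreted Wnt modulator (0.63, adjusted p = 0.00659, edgeR), and the replication helicase subunit Mcm6 (2.40, adjusted p = 1.40e-04, edgeR) were also higher. Without clusters 45 and 139 and against progenitors the differences of Sox2, Fgf15, Sfrp2 and Mcm6 were 1.45, 1.71, 1.15 and 2.40. Sox2 and Mcm6 passed in all alternatives that gave a value. Fgf15 and Sfrp2 lost the call when the cells of shared barcodes were left out (0.34 and 0.26) and with DESeq2 (0.67 and 0.60), Fgf15 also without Bax null replicate 2 (0.43) or double mutant replicate 1 (0.40), and Sfrp2 without Bax null replicate 1 (0.47). Of the whole progenitor list 3 of 15 genes were higher and 2 lower, where 11.5% and 13.3% of all genes were, and the median was 0.10 against 0.04 over all genes. Against progenitors 6 of the 15 were higher and 0 lower, where 1.46% of all genes passed in either direction. Of the S phase list 3 of 15 were higher and 1 lower, and against progenitors 2 of 16 were higher and 0 lower. The direction of Sox2, Fgf15 and Sfrp2 was not particular to members. In the amacrine-like cells of Bax null they were at 56.9 and 75.1, 278 and 268, and 158 and 165 CPM. In those of the double mutant they were at 239 and 321, 894 and 1046, and 564 and 785 CPM.

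Pax6 ordered the groups completely, with 3397 and 3573 scaled CPM in Bax null, 2115 and 2161 in Bax het Atoh7 null, and 1313 and 1186 in the double mutant. Between the double mutant and Bax null it fell by 1.48 in log2 units (SE 0.15, adjusted p = 8.17e-07, edgeR). Against progenitors the fall was 0.37 (SE 0.07, adjusted p = 3.35e-05, edgeR), so most of it was shared with progenitors. The ganglion cell and neuronal factor Ebf1 (-1.22) and Gap43 (-0.71) also fell in the double mutant and kept the call in the same 4 fits. In Bax het Atoh7 null the homeobox genes Dlx1 (-1.48, SE 0.24, adjusted p = 2.65e-04, edgeR) and Dlx2 (-2.73, SE 0.48, adjusted p = 5.06e-04, edgeR) did, a pair named after their values were seen. Dlx2 was at 8.01 and 8.71 scaled CPM in Bax het Atoh7 null, 83.4 and 30.7 in both libraries of Bax null, and 18.0 and 26.4 in the double mutant.

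Prdm1 and Otx2 were higher in Bax null, and most of their transcripts there lay in clusters 45 and 139. Of 5 tested photoreceptor genes 3 were lower in the double mutant (Otx2, Prdm1, Gngt2) and 3 in Bax het Atoh7 null (Otx2, Prdm1, Crx), where 13.3% and 13.6% of all genes were lower. Prdm1, a repressor that steers Otx2 cells to photoreceptors, was at 37.7 and 57.6 scaled CPM in Bax null, 8.01 and 4.98 in Bax het Atoh7 null, and 5.54 and 4.65 in the double mutant (log2 difference -3.18, SE 0.44, adjusted p = 3.69e-05, edgeR, for the Atoh7 contrast). All 73 Prdm1 UMIs of Bax null members lay in 32 of the 101 members of clusters 45 and 139, and none in the other clusters. In Bax het Atoh7 null 4 of 86 such members carried Prdm1, and in the double mutant 3 of 123. Otx2 had 134 of its 166 Bax null UMIs in clusters 45 and 139. Its log2 difference went from -1.30 (SE 0.28, adjusted p = 0.00208, edgeR) to -0.01 (SE 0.34, adjusted p = 0.993, edgeR) when these clusters were left out. Meis2, a homeobox factor of amacrine cells, and Neurod4, a bHLH factor of photoreceptor and amacrine precursors, lost their calls in the same way, from -1.39 to -0.46 and from -1.09 to 0.32. Clusters 45 and 139 had been set apart for the lowest Tfap2b of their members, so that trait belongs to their choice and is no finding. The higher Otx2 and Prdm1 of Bax null were not particular to members. Amacrine-like cells held Otx2 at 193 and 123 CPM in Bax null and 16.7 to 95.8 CPM elsewhere. Their Prdm1 overlapped, at 34.8 and 80.1 against 5.32 to 42.2 CPM. In label cells of neither class Prdm1 was at 70.0 and 28.5 against 0 to 14.1 CPM, and Otx2 overlapped (101 and 66.4 against 45.7 to 106 CPM).

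**Figure D5:**
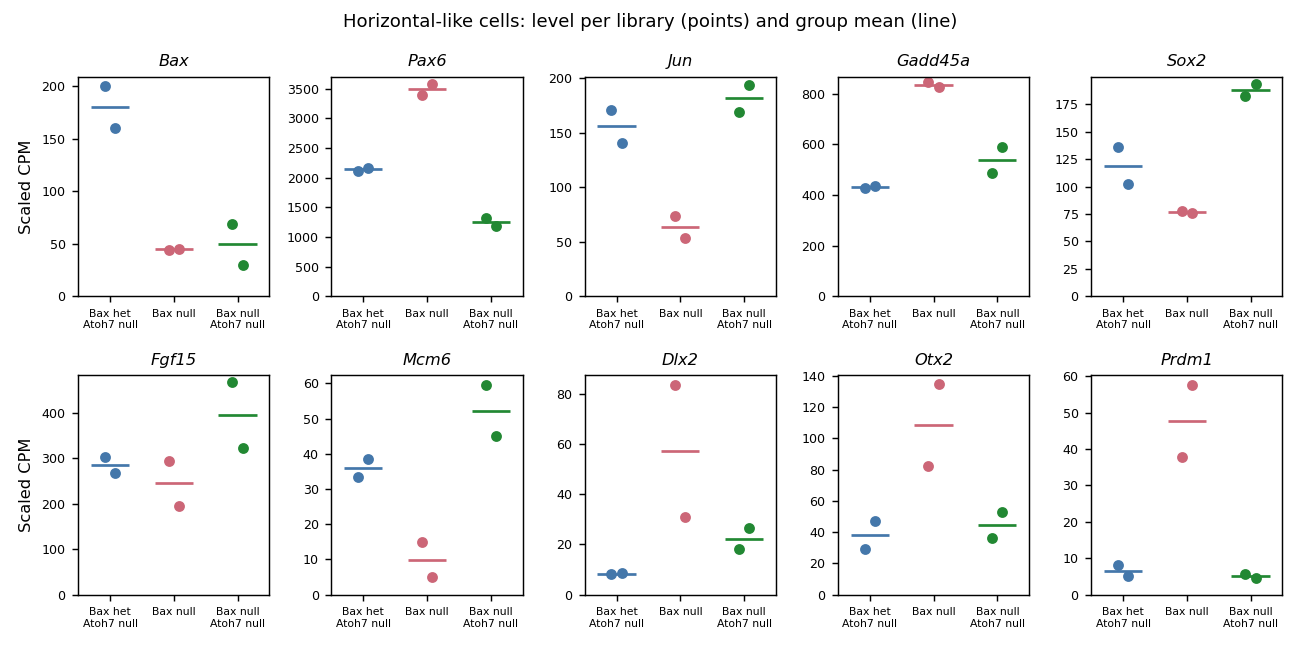
Scaled CPM of 10 genes in horizontal-like cells by group; points are libraries, lines are means of 2, and axes start at 0. Jun is lower and Gadd45a higher in both Bax null libraries than in the other 4, Pax6 separates all 3 groups, and Otx2 and Prdm1 are highest in Bax null.

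Finally, effects of genotype were compared between horizontal-like and amacrine-like cells, where differences common to all cells of a library cancel. The effect of the double mutant against Bax null differed between the classes for 6 of 7345 genes (0.0817%), and that of Bax het Atoh7 null against Bax null for 11 (0.150%). Between the Atoh7 null groups it differed for 0 genes in edgeR and 0 in DESeq2, with 356 genes (4.85%) at an unadjusted p under 0.05. The 17 differences are listed in the closing section. DESeq2 called 0 in either contrast with Bax null. Without Bax null replicate 2 edgeR called 0 and 3 genes, without double mutant replicate 1 it called 3 in the first contrast, and without Bax het Atoh7 null replicates 1 and 2 it called 6 and 0 in the second. For nearly all genes a genotype effect particular to horizontal-like cells was thus not detectable with 2 libraries per group.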

How the data were processed

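Retinal cells of 6 mouse libraries at embryonic day 14 were profiled with 10x Genomics 3' chemistry, and the authors deposited raw UMI counts of 27998 genes with cell types and clusters. Per the submitters' processing notes, Cell Ranger 1.2.1 and build mm10 were used. The matrix held 93128 cells, of which 67050 belonged to the 6 libraries and 26078 were not used here. Groups were taken from the labels.

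The members and gene lists were chosen with earlier results of these data known. Counts were summed per library and class. They were tested with edgeR 4.0.16 in R 4.3.3 (filterByExpr, TMM scaling, quasi-likelihood F test, two-sided, Benjamini-Hochberg adjusted p under 0.05), leaving out the 8 genes of the rule. Group contrasts used all 6 libraries. The within-library difference from progenitors is the interaction of class and group with the library as block. Shares were tested on cell counts of 7 classes. Wilson intervals and floors (3 counts) cover counting error only.

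Named genes were list members, Bax, Atoh7, and per comparison up to 10 genes a direction with the largest log2 difference and at least 50 CPM in the higher group. Between groups the libraries also had to be without overlap. Between horizontal-like and amacrine-like cells only the same direction in all 6 libraries was asked for. Other genes were named after their values were seen. Mitochondrial genes were left out of the ranking.

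Doublets were marked as the top 8% of each library by Scrublet in scanpy 1.11.5 (5364 cells, 157 of them members) and kept. Same-numbered libraries did not deviate together (correlations 0.02, 0.05 and -0.02), so the numbers were not treated as pairs. On simulated counts of 7799 genes for Bax null Atoh7 null against Bax null, 89.0% of 2-fold and 100% of 4-fold changes were recovered. Alternatives included DESeq2 1.42.0, limma 3.58.1 on shares, other filters and rules, and each library left out. Leaving out shared cells, leaving out clusters 45 and 139, and using cluster 2 alone were added after seeing the data.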

Additional observations from a re-analysis of the deposited data

Results flagged for a closer look

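The genotype effect differed between horizontal-like and amacrine-like cells for the following genes, by edgeR's test of the difference itself with Benjamini-Hochberg adjustment. Values are the log2 effect in horizontal-like minus that in amacrine-like cells, and a negative value means a lower effect in horizontal-like cells.

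For the double mutant against Bax null, the G1 cyclin Ccnd1 was at -1.45 (SE 0.26, adjusted p = 0.00158) and the kinetochore genes Cenpf at -2.78 (SE 0.51, adjusted p = 0.00158) and Cenpa at -2.49 (SE 0.50, adjusted p = 0.00867). The retinoic acid enzyme Aldh1a1 was at -2.07 (SE 0.44, adjusted p = 0.0197). The neuronal tubulin Tuba1a was at 0.39 (SE 0.07, adjusted p = 0.00158) and Mllt11 at 1.02 (SE 0.23, adjusted p = 0.0426).

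For Bax het Atoh7 null against Bax null, the hemoglobin genes Hba-a1, Hba-a2 and Hbb-bs were at 4.57 (SE 0.70, adjusted p = 7.76e-05), 3.58 (SE 0.68, adjusted p = 0.00378) and 2.31 (SE 0.51, adjusted p = 0.0221). Blood transcripts summed to 3158 and 859 CPM in the amacrine-like and 1091 and 860 CPM in the horizontal-like cells of Bax null. The actin-binding Tmsb10 was at 0.39 (SE 0.07, adjusted p = 8.42e-04), the microtubule regulator Stmn1 at 0.41 (SE 0.08, adjusted p = 0.00593), Tuba1a at 0.28 (SE 0.06, adjusted p = 0.0316) and the tropomyosin Tpm3 at 1.04 (SE 0.25, adjusted p = 0.0498). Nnat was at 0.38 (SE 0.08, adjusted p = 0.00697), Ubb at 0.37 (SE 0.08, adjusted p = 0.0150), the secreted factor Dkk3 at -0.82 (SE 0.17, adjusted p = 0.00757) and Cenpf at -2.23 (SE 0.52, adjusted p = 0.0427).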

How the results depend on the processing

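With 2 libraries per group the calls depended on the method. In horizontal-like cells, calls for the double mutant against Bax null numbered 781 with DESeq2, 193 as the within-library difference from progenitors and 197 when clusters 45 and 139 were also left out, and for Bax het Atoh7 null against Bax null 671, 236 and 199. Between the groups that lack Atoh7 they numbered 51 with DESeq2, 9 and 6 against progenitors with and without those clusters, 143 over the whole label, 153 without a filter and 47 with only the 4 libraries compared. Horizontal-like against amacrine-like cells gave 295 calls with DESeq2, 118 with no library block, 353 with thinned cells, 144 with a winning sum of at least 2 UMIs and a losing sum of 0, and 18 in cluster 2 alone.

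Differences in effect between the classes in the double mutant against Bax null numbered 0 with DESeq2, 0 without doublets, 0 under the stricter sums and 3 without shared cells. The contrast of Bax het Atoh7 null with Bax null had 0 with DESeq2, 6 without doublets, 5 without a filter and 4 under the stricter sums. Between the 2 groups without Atoh7 there was 1 without a filter.

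The share difference of Bax het Atoh7 null from Bax null was -0.03 within the label and 0.35 with TMM over the classes. That of the double mutant from Bax null was 0.81 with thinned cells, 0.35 with only the 4 libraries, and 0.51 or 0.42 with shared cells left out of both libraries or of replicate 1, and that between the Atoh7 null groups was 0.06 within the label.

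Leaving out each library gave 1146 to 1888, 22 to 226 and 1043 to 2363 calls in the contrasts of the double mutant with Bax null, of the Atoh7 null groups, and of Bax het Atoh7 null with Bax null. It gave 509 to 607 calls between the classes and 0 to 9, 0 to 1 and 0 to 15 differences in effect, in the same order of contrasts. Share differences ran from 0.20 to 0.50, -0.39 to -0.10 and 0.55 to 0.65. A replicate block gave 1955, 107 and 2002 calls and share differences of 0.35, -0.25 and 0.59, and changed no call of a named gene.

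Single genes kept direction and call in 1531 comparisons with an alternative, lost the call in 269 and reversed in 11. Against progenitors, with and without clusters 45 and 139, the reversed values between the Atoh7 null groups were 0.49 and 0.53 for Bax, 0.12 and 0.08 for Rorb, and 0.15 and 0.17 for Rps29. Without those clusters Atp5k was at 0.01 and Usmg5 at 0.02. Neurod4 was at 0.32 in the double mutant against Bax null without those clusters, Otx2 at 0.13 for Bax het Atoh7 null minus Bax null without them and against progenitors, and the effect difference of Hbb-bs ran from -0.21 (without Bax het Atoh7 null replicate 2) to 5.50 with 1 library left out. The cause was not tested.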
